A study of Mus musculus with 56 samples.

Results

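Hepatic stellate cells are the vitamin A-storing mural cells of the liver sinusoid. In a resting state they keep retinyl esters in lipid droplets, and after injury they can lose this store, acquire a contractile phenotype and become the main source of fibrillar collagen. The genes described here, 10 of the 21935 in the deposited liver count table, are linked with these states and were taken by symbol: Lrat, Reln, Hgf, Hand2 and Cygb, commonly used as markers of stellate cells and several of them of the resting state, Rgs5 and Pdgfrb, which mark pericytes and stellate cells, and Acta2, Des and Tagln, which encode cytoskeletal proteins of contractile cells. All 10 were found and all 10 passed the filter on low counts, which left 14105 genes for testing.

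Liver RNA was sequenced from 56 mice in 7 groups of 8, all male C57BL/6J mice dosed subcutaneously once a day for 8 weeks. One group ate chow and received vehicle. The other 6 groups ate the AMLN diet (high in fat, cholesterol and fructose) to induce obesity and steatohepatitis (DIO-MASH) for 36 weeks before dosing, and were entered only if a liver biopsy showed steatosis and fibrosis. They received vehicle, zalfermin at 0.05 mg/kg (low dose) or 0.2 mg/kg (high dose), semaglutide at 3 µg/kg (low dose) or 120 µg/kg (high dose), or the combination of both low doses. The combination doses are those of the study's methods, since the design text of the deposit names both high doses. Zalfermin is an analog of FGF21, a hormone of energy metabolism, and semaglutide is an agonist of the GLP-1 receptor.

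Depth was 5228187 to 20885786 counted reads per mouse, with a median of 12206788, and the member with the fewest reads in any mouse was Hgf, with 18 reads in a chow mouse. Values are given as CPM (reads of a gene relative to the TMM-scaled library size), differences on the log2 scale with their standard error (SE), and a gene was called when its adjusted p in edgeR's quasi-likelihood test (Benjamini-Hochberg, 14105 genes) was under 0.05. Libraries that stood apart touched 3 of the members most: chow mouse 8, and to a lesser degree chow mouse 7, had contractile gene levels far above the other chow mice, so Acta2, Des and Tagln are given with and without them. Mouse 6 of the low-dose semaglutide group also stood apart on the first principal component, at 17.6 against -14.1 to -1.99 for the other 7 mice of its group. High-dose zalfermin mouse 6 (15.6 against -2.13 to 5.6) and combination mouse 3 (13.8 against -6.61 to 2.17) lay above their groups in the same way. So did high-dose semaglutide mouse 3 (12 against -16.7 to 5.12) and low-dose zalfermin mouse 1 (11.6 against -13.4 to -6.08). The study left out 1 mouse of the low-dose semaglutide group, which the labels do not mark, and all 56 are used here. In whole liver, fewer cells of a type and less RNA per cell cannot be told apart.

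The promoters of Lrat, the retinol-esterifying enzyme, and Acta2, the smooth muscle actin, are shown because the former was called in the main comparisons below and the latter turned on single mice. Each is the 250 bases before the transcription start in RefSeq on GRCm38.p6, on the strand of the gene (Lrat at chr3:82903975-82904224, minus, and Acta2 at chr19:34255374-34255623, minus). Capitals mark a CArG box, the 10-base element bound by serum response factor in contractile genes (CC, then 6 bases of A or T, then GG), with 1 of the 6 inner bases replaced by G or C, a form that reads the same way on either strand.
Lrat: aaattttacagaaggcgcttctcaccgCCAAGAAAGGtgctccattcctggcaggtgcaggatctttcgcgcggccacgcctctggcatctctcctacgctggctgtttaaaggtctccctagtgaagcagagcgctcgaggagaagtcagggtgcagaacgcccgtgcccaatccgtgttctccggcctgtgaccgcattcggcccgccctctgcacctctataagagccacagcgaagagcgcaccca
Acta2: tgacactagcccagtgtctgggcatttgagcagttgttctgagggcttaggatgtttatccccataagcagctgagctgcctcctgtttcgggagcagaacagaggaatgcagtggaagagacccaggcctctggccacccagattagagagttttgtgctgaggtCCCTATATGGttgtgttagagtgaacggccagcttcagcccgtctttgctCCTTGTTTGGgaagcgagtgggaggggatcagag
The Acta2 window held 2 such sites, with first bases at -84 and -34 from the start, and the Lrat window held 1, at -223. Of the 7 members with an entry, which leaves out Cygb, Pdgfrb and Tagln, these 2 held the form with 1 replaced base and none held a perfect CArG box. Among all 32536 promoter windows of this length, 7.23% held the former and 1.48% the latter. A match of letters is a description and says nothing of binding in these livers.

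The position of each member on GRCm38 follows GENCODE M21. Lrat lies at chr3:82892579-82903973, Reln at chr5:21884454-22344702 and Hgf at chr5:16553495-16620152. Hand2 lies at chr8:57320983-57324633, Cygb at chr11:116645595-116654313 and Rgs5 at chr1:169655501-169695813. Pdgfrb lies at chr18:61045150-61085061, Acta2 at chr19:34241090-34255590, Des at chr1:75360329-75368579 and Tagln at chr9:45929619-45936058. Acta2 is on the minus strand, and its start here, at 34255590, lies inside the RefSeq promoter window above. The positions of the sites given for it thus depend on the annotation used. Exons of Cygb share 201 bases with Prcd and exons of Tagln share 108 bases with Pcsk7, in both cases on the opposite strand. Genes absent from the deposited counts share exon bases with members too. On the opposite strand these are Gm48529 with Tagln (1241 bases), Hand2os1 with Hand2 (461), Gm10475 with Reln (246) and Gm15179 with Des (220). Gm43489 shares 484 bases with Hgf on the same strand. Whether the counting used strand is not given in the sources used here, so reads over those shared bases are uncertain.

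Per kilobase of exon, the most abundant member in DIO-MASH vehicle livers was Cygb, which encodes the globin of stellate cells, at a mean of 31.1 CPM per kb (19.1 to 48.5 over the 8 mice). It was above every value of the next, Rgs5, at 11.3 (8.70 to 16.1). Pdgfrb at 8.95, Tagln at 8.90, Hand2 at 6.38, Lrat at 6.31, Reln at 5.81, Des at 3.36, Acta2 at 3.18 and Hgf at 2.70 CPM per kb followed, and from Rgs5 down each gene overlapped its neighbour in this order over the mice.

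The first comparison asked how the diet-induced disease changed these genes. In this comparison 8 of the 10 members were called lower in chow than in DIO-MASH vehicle livers, none higher, where 28.9% of all tested genes were called lower. The median log2 difference, chow minus vehicle, was -1.54 over the members and -0.01 over all genes. Every chow mouse lay below every vehicle mouse for 6 members (Lrat, Reln, Hgf, Cygb, Rgs5 and Pdgfrb), a separation that 9.49% of all genes showed. The genes used as markers of resting stellate cells, Lrat and Reln among them, were thus higher in the diseased livers, in the same direction as Pdgfrb.

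**Figure D1:**
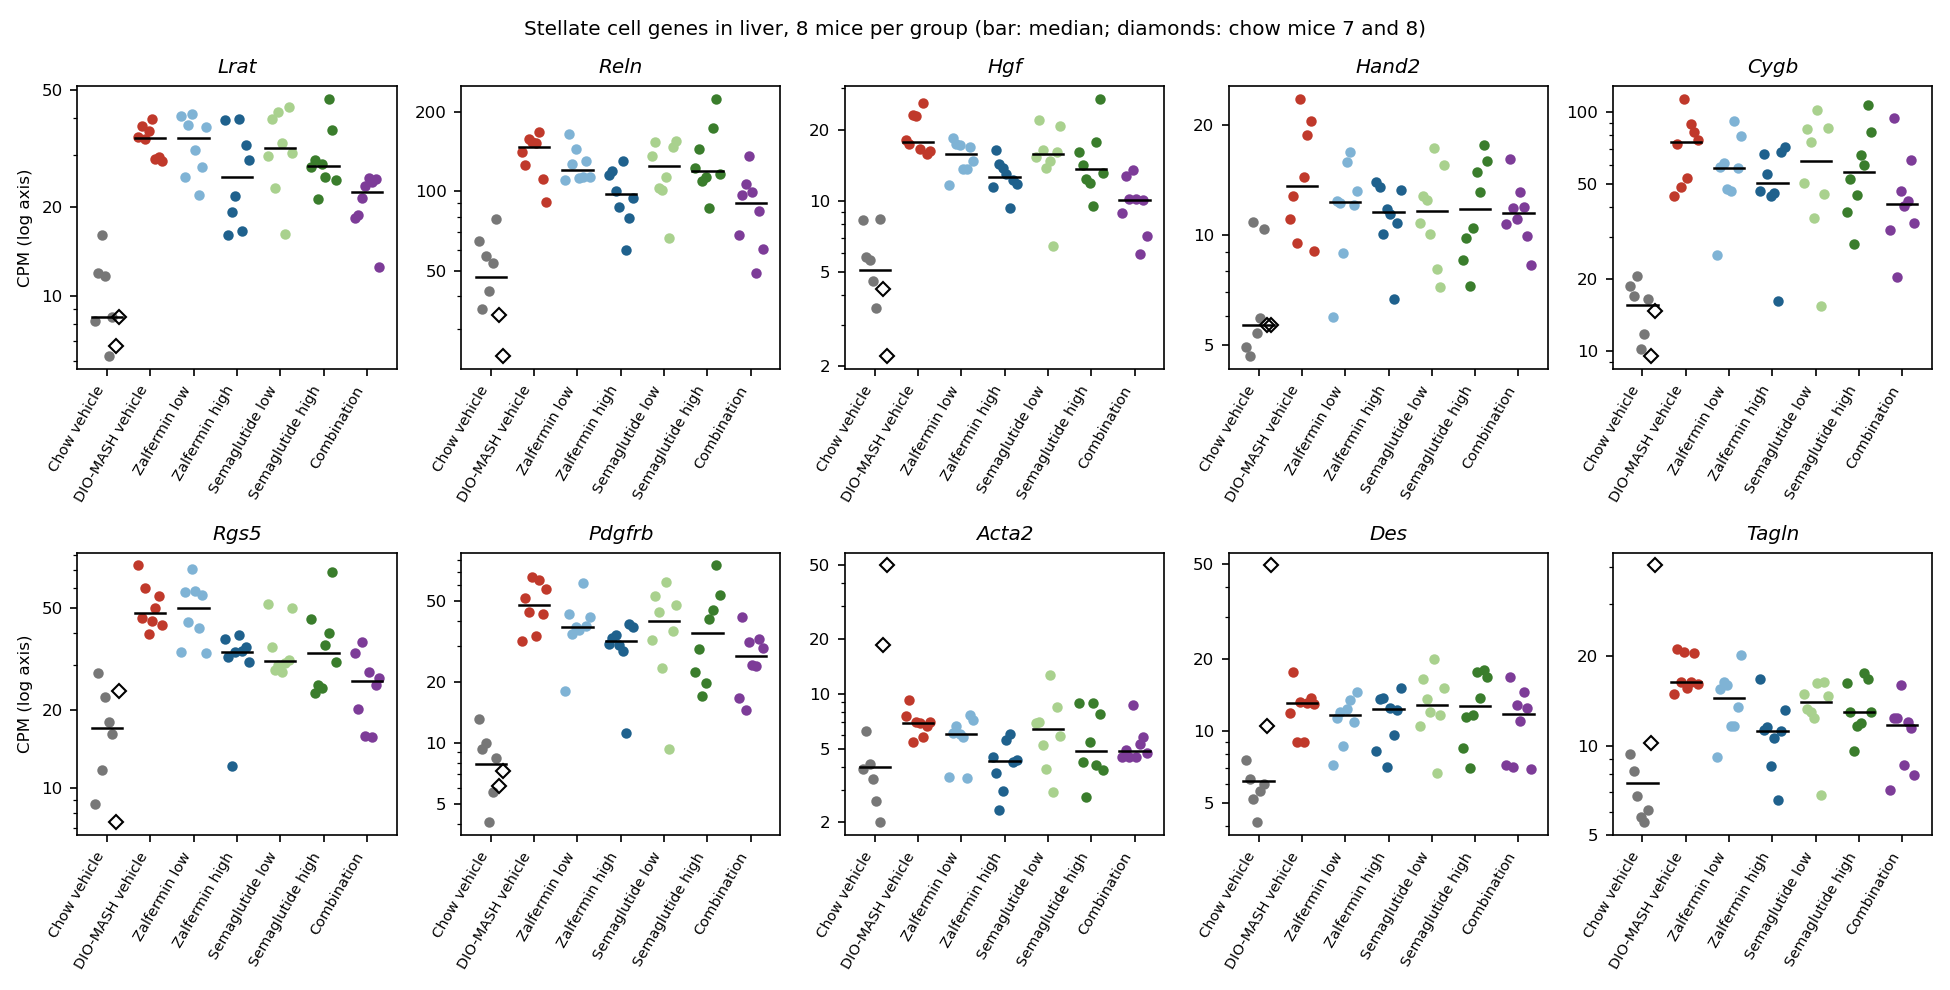
CPM on a log axis of the 10 members in each of the 56 mice, by group, with the group median as a bar and chow mice 7 and 8 as open diamonds. Chow has the lowest median for all 10 genes, and for Acta2, Des and Tagln chow mouse 8 lies at 50.1, 49.5 and 40.4 CPM, above all other mice.

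Lrat, which makes retinyl esters for storage, had 6.24 CPM in the lowest, 8.47 in the median and 16.1 in the highest chow mouse, against 28.7, 34.4 and 39.7 in DIO-MASH vehicle. The groups did not overlap, and the log2 difference was -1.81 ± 0.20 (adjusted p = 8.4e-11). Reln, an extracellular glycoprotein that stellate cells secrete, ran from 23.8 through 47.5 to 78.5 CPM in chow and from 91.4 through 147 to 168 in vehicle (-1.50 ± 0.20, adjusted p = 9.71e-09). Hgf, the ligand of Met and a mitogen for hepatocytes, ran from 2.21 through 5.12 to 8.38 CPM in chow and from 15.7 through 17.7 to 25.8 in vehicle (-1.84 ± 0.20, adjusted p = 9.9e-11). The vehicle mice had the higher values of all 3 genes without exception.

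Cygb ran from 9.58 through 15.6 to 20.6 CPM in chow and from 44.5 through 74.7 to 113 in vehicle, a log2 difference of -2.29 ± 0.30 (adjusted p = 1.2e-08). Pdgfrb, the receptor through which PDGF-B and PDGF-D drive stellate cell growth, had the largest difference of the 10. It ran from 4.05 through 7.86 to 13.1 CPM in chow and from 31.8 through 48 to 65.6 in vehicle (-2.62 ± 0.30, adjusted p = 2.5e-10). For Rgs5, a regulator that shortens G protein signals in pericytes, the 8 chow mice lay between 7.33 and 28 CPM with a median of 17.1, and the vehicle mice between 39.5 and 73.2 with a median of 47.8 (-1.58 ± 0.23, adjusted p = 1.1e-07). Hand2, a transcription factor of stellate cells, overlapped: the chow mice ran from 4.67 through 5.67 to 10.9 CPM and 6 of 8 were below the lowest vehicle mouse, at 9.07, with a vehicle median of 13.7 and highest value of 23.6 (-1.18 ± 0.21, adjusted p = 7.1e-06).

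For the contractile genes the size of the difference depended on chow mouse 8, and for Acta2 its sign did too. Without that mouse Des and Tagln were called lower in chow, in the direction of the genes above. Acta2, the smooth muscle actin by which activated stellate cells are usually identified, had 50.1 CPM in chow mouse 8, 18.6 in chow mouse 7 and 2 to 6.32 in the other 6 chow mice, against 5.47 to 9.25 with a median of 6.97 in DIO-MASH vehicle. With all 8 chow mice the log2 difference was 0.69 ± 0.38 (adjusted p = 0.11), without chow mouse 8 it was -0.27 (adjusted p = 0.452), and without the 3 mice of number series D (below) it was -0.91 and was called lower (adjusted p = 0.00457). Without chow mouse 6 it was 0.86 and was called higher (adjusted p = 0.0415). The direction for Acta2 thus depended on chow mice 7 and 8, and its call on which chow mice were kept.

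Des, which encodes the intermediate filament desmin, had 49.5 CPM in chow mouse 8, 10.5 in chow mouse 7 and 4.14 to 7.59 in the other 6, against 8.97 to 17.7 with a median of 13.1 in vehicle. Its log2 difference was -0.10 ± 0.30 with all mice (adjusted p = 0.8) and -0.96 without chow mouse 8 (adjusted p = 0.000204). Tagln, the actin-binding protein transgelin, had 40.4 CPM in chow mouse 8, 10.2 in chow mouse 7 and 5.51 to 9.33 in the other 6, against 14.9 to 21.1 with a median of 16.4 in vehicle. It was called at -0.63 ± 0.25 with all mice (adjusted p = 0.029) and at -1.26 without chow mouse 8 (adjusted p = 5.38e-08). Leaving out 1 of 7 other mice, chow mice 1 to 6 or vehicle mouse 2, ended the Tagln call, with an adjusted p of up to 0.075.

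Chow mouse 8 also had the highest value among the 8 chow mice for 9 of 11 measured smooth muscle genes. Myh11, the smooth muscle myosin, was at 63.1 CPM there, 17 in chow mouse 7 and 3.84 to 7.83 in the other 6. Actg2, an actin of visceral smooth muscle, was at 29.1 CPM in chow mouse 8, 2.25 in chow mouse 7 and at most 0.828 in the rest, and Cnn1, calponin, at 12.4, 2.01 and at most 0.416. The summed level of the smooth muscle list was 655 CPM in chow mouse 8, 362.5 to 493.7 in the other 7 chow mice and 391.9 to 594.2 in vehicle. Summed cholangiocyte markers were also high in chow mouse 8 among chow mice (304 CPM against 42.5 to 76.9), as were portal fibroblast markers (53.9 against 13.3 to 28.9). The part of these in the Acta2, Des and Tagln values was not tested. Lrat, Reln, Hgf, Hand2, Cygb, Rgs5 and Pdgfrb in chow mouse 8 were within or below the range of the other chow mice.

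**Figure D2:**
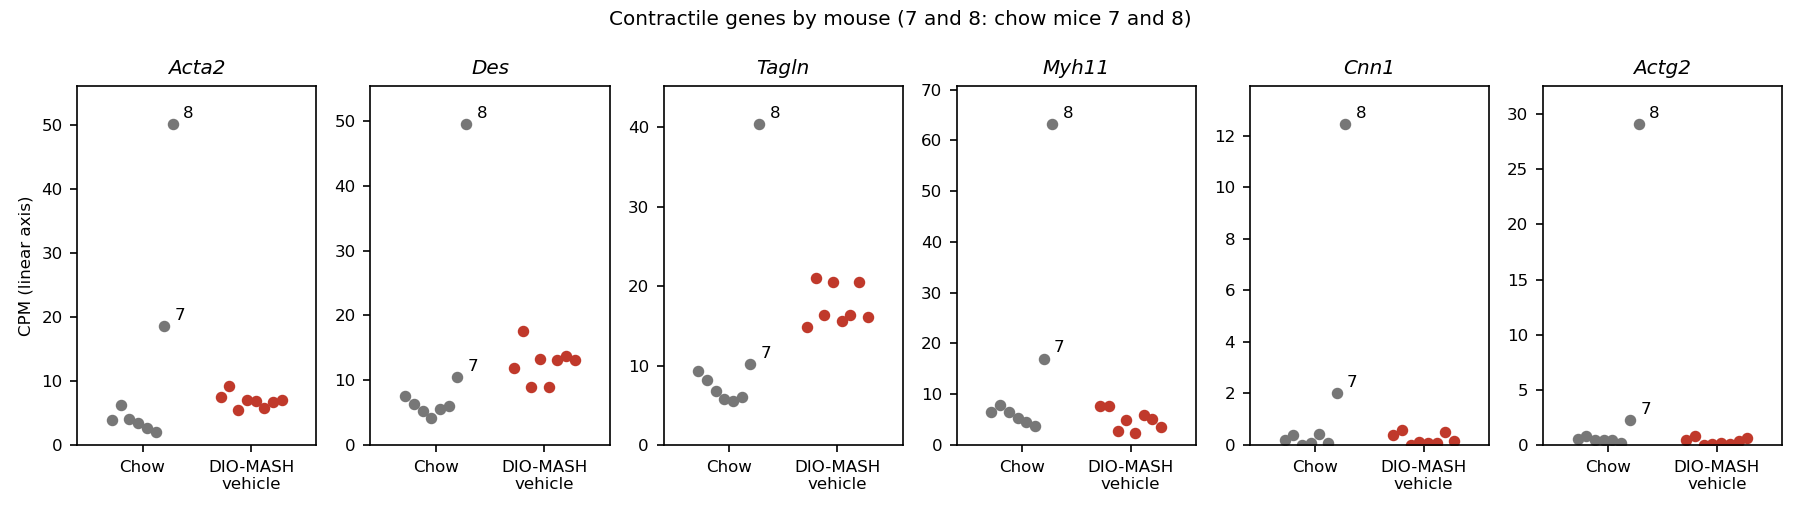
CPM on a linear axis of Acta2, Des, Tagln, Myh11, Cnn1 and Actg2 in each of the 8 chow and 8 DIO-MASH vehicle mice, with chow mice 7 and 8 numbered. Chow mouse 8 lies far above all others in each panel, at 63.1 CPM for Myh11 and 12.4 CPM for Cnn1, and chow mouse 7 lies above the vehicle mice for Acta2, Myh11, Cnn1 and Actg2.

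The labels give each mouse a number and name no series. For this report the numbers were split by range into 4 series, called A to D, of which D holds only chow mice 7 and 8 and vehicle mouse 8. Where to split was a choice made here, and whether the ranges stand for anything in the study is not stated. Within each of series A, B and C, all 10 members were lower in chow than in vehicle. This included Acta2 (log2 differences of -0.73, -0.62 and -1.21), Des (-1.05, -0.95 and -1.34) and Tagln (-1.004, -1.34 and -1.64). Series B holds only 1 chow mouse. Lrat differed by -1.85, -1.18 and -1.77 and Pdgfrb by -1.86, -2.19 and -3.14 in the same series.

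Treatment with the combination lowered 6 members against DIO-MASH vehicle and raised none, where 10.9% of all tested genes were called lower. These were Rgs5, Hgf, Pdgfrb, Tagln, Lrat and Reln. The median log2 difference over the 10 members was -0.66. All 8 combination mice lay below all 8 vehicle mice for 3 members, Lrat, Hgf and Rgs5, as they did for 1.89% of all genes. The treated groups were each set against the same 8 vehicle mice, so these comparisons share their controls, as do the comparisons with chow below.

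**Figure D3:**
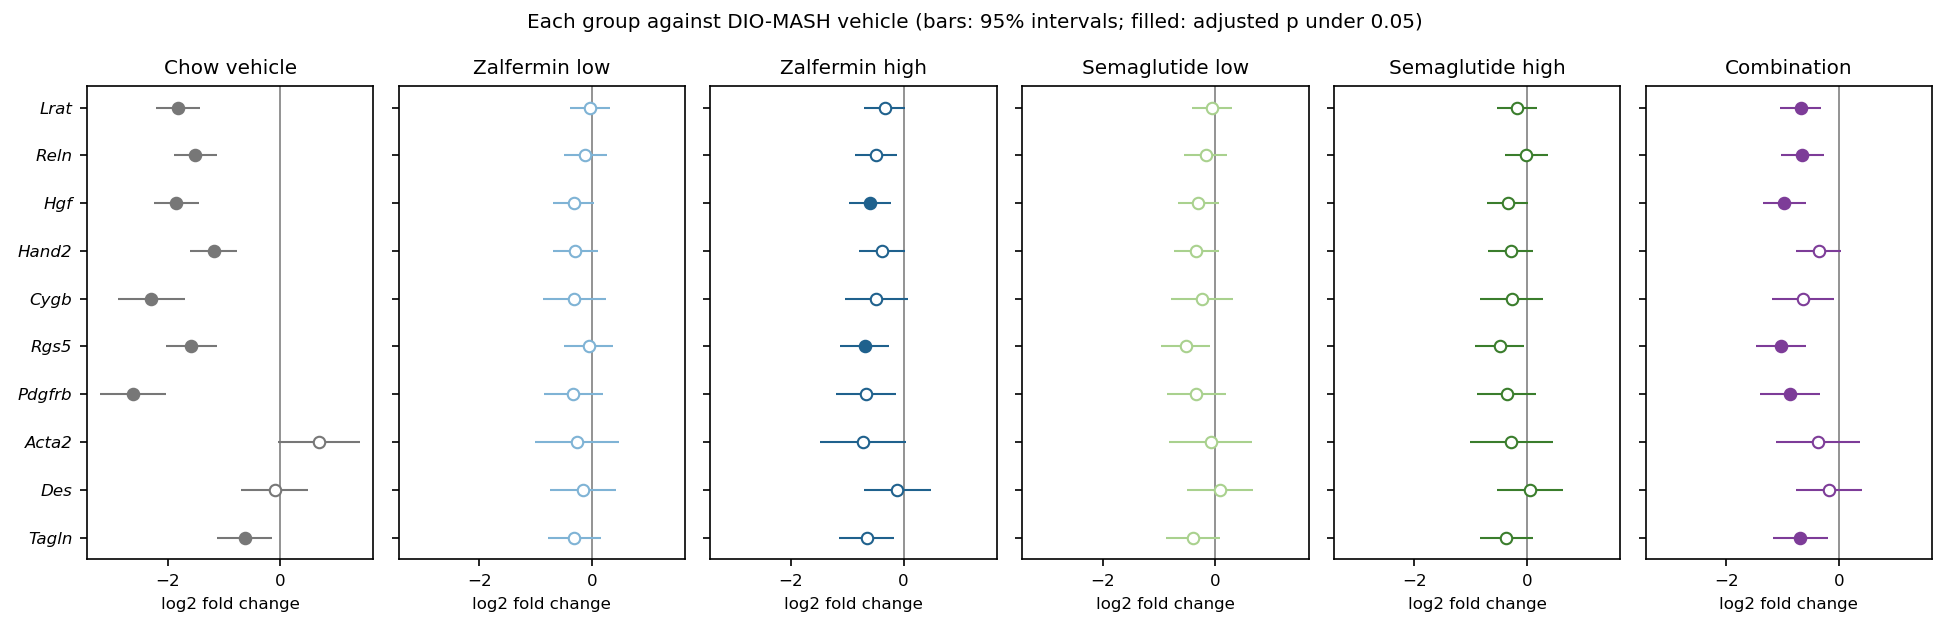
Log2 fold change of each member against DIO-MASH vehicle in 6 panels, one for each other group, with bars for the 95% interval and filled points where the adjusted p was under 0.05. The combination has 6 filled points, high-dose zalfermin 2, and low-dose zalfermin and both semaglutide doses 0.

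Rgs5 had the largest difference under the combination. It ran from 15.8 through 25.9 to 37 CPM in the treated mice and lay below the vehicle range of 39.5 to 73.2 in all 8, a log2 difference of -1.02 ± 0.23 (adjusted p = 0.00076). Hgf ran from 5.99 through 10.1 to 13.5 CPM, below the lowest vehicle mouse at 15.7 (-0.96 ± 0.19, adjusted p = 0.00019). Lrat ran from 12.5 through 22.5 to 25.1 CPM, below the lowest vehicle mouse at 28.7 (-0.67 ± 0.19, adjusted p = 0.007). Thus the retinol-storing enzyme and the hepatocyte mitogen moved toward the chow level, downward, with the pericyte gene.

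Pdgfrb ran from 14.6 through 26.8 to 42.1 CPM in combination livers, with 6 of 8 mice below the lowest vehicle mouse (-0.86 ± 0.27, adjusted p = 0.018). Reln ran from 48.8 through 90.5 to 137 CPM, with 4 of 8 below the lowest vehicle mouse (-0.65 ± 0.19, adjusted p = 0.012). Tagln ran from 7.09 through 11.7 to 15.9 CPM, with 7 of 8 below the lowest vehicle mouse (-0.68 ± 0.25, adjusted p = 0.041). This last call was the least firm of the 6 and was lost when any 1 of 9 mice was left out, with an adjusted p of up to 0.0913.

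The 4 members not called under the combination had differences of -0.63 ± 0.28 for Cygb (adjusted p = 0.1), -0.36 ± 0.38 for Acta2 (0.52), -0.35 ± 0.20 for Hand2 (0.22) and -0.18 ± 0.30 for Des (0.72). Cygb spread widely, from 20.5 through 41.3 to 93.8 CPM, and was called when combination mouse 2, the highest, was left out (log2 difference of -0.85, adjusted p = 0.0237). Acta2 ran from 4.54 through 4.86 to 8.74 CPM with 6 of 8 mice below the lowest vehicle mouse at 5.47, so its level was low in both groups. Within number series A, B and C, 8 of 10 members were lower in every series with the combination, Hand2 and Des being the exceptions. Rgs5 differed by -1.20, -1.15 and -1.02 there and Hgf by -0.66, -1.38 and -1.24. The same count was 8 of 10 with low-dose zalfermin, where no member was called, 7 with high-dose zalfermin and 5 with either semaglutide dose. It thus does not set the combination apart from low-dose zalfermin, and no share over all genes was taken for it.

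High-dose zalfermin lowered 2 members, Rgs5 and Hgf, where 8.68% of all genes were called lower. Rgs5 ran from 12.1 through 33.7 to 39.2 CPM, all below the lowest vehicle mouse, as 2.47% of all genes did under this treatment (-0.69 ± 0.22, adjusted p = 0.025). Hgf ran from 9.36 through 12.6 to 16.4 CPM with 7 of 8 mice below the lowest vehicle mouse (-0.60 ± 0.19, adjusted p = 0.022). Tagln (-0.66 ± 0.25, adjusted p = 0.058), Reln (-0.49 ± 0.19, 0.072) and Pdgfrb (-0.67 ± 0.27, 0.077) lay just outside the threshold, and Acta2 at -0.73 ± 0.39 further from it (0.21). The count rested on the setting: 5 members were called when the 3 mice of series D were left out and 6 when only the 2 groups were fitted, and the Rgs5 call was lost without high-dose zalfermin mouse 3 or vehicle mouse 1, and that of Hgf without high-dose zalfermin mouse 6 or vehicle mouse 6. Without low-dose semaglutide mouse 6, 4 members were called. The share of all genes called under these settings is not given here, so a shift of the members cannot be told from one over all genes.

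The remaining monotherapies called no member against vehicle with edgeR. With low-dose zalfermin, 0.0496% of all genes were called lower, no member had an unadjusted p under 0.05, and DESeq2 called 0. With low-dose semaglutide, 0.0% of all genes were called lower, 1 member had an unadjusted p under 0.05 (Rgs5, -0.52 ± 0.22), and DESeq2 called 0. With high-dose semaglutide, 1.0% of all genes were called lower, again 1 member, Rgs5, had an unadjusted p under 0.05 (-0.48 ± 0.22), and DESeq2 called 0. Rgs5 ran from 28.2 through 31 to 51.7 CPM with low-dose semaglutide and from 33.5 through 50.1 to 70.7 with low-dose zalfermin. The median of Lrat was 34.3 CPM with low-dose zalfermin and 31.7 with low-dose semaglutide, beside 34.4 in vehicle. The low-dose semaglutide mouse that stood apart was below the other 7 of its group for 8 of the 10 members, all but Hand2 and Rgs5, for example at 9.38 against 23.6 to 62.1 CPM for Pdgfrb and at 15.5 against 36.1 to 102 CPM for Cygb.

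Set against its own low-dose components, the combination had lower Rgs5 (-0.96 ± 0.23, adjusted p = 0.0049), Hgf (-0.64 ± 0.19, 0.031) and Lrat (-0.64 ± 0.19, 0.026) than low-dose zalfermin, where 3.35% of all genes were called lower. Against low-dose semaglutide it had lower Hgf (-0.66 ± 0.19, adjusted p = 0.032) and Lrat (-0.61 ± 0.19, 0.046), where 2.28% of all genes were called lower. The Lrat call against low-dose semaglutide was the frailest, being lost in 34 of 56 refits that each left out 1 mouse. Only 1 member was called against low-dose zalfermin without combination mouse 1 or 8 or low-dose zalfermin mouse 3 or 4. None was called against low-dose semaglutide without combination mouse 1, 5, 6 or 8 or low-dose semaglutide mouse 1, 2, 7 or 8.

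Set against the high doses, the combination had no member called by edgeR. Against high-dose zalfermin, where 0.503% of all genes were called, no member had an unadjusted p under 0.05 with edgeR and DESeq2 called 0. The 95% interval of the difference was -0.77 to 0.12 for Rgs5, -0.75 to 0.01 for Hgf and -0.71 to 0.03 for Lrat on the log2 scale. Against high-dose semaglutide, where 1.89% were called, edgeR called 0 members, 4 had an unadjusted p under 0.05 (Lrat, Reln, Hgf and Rgs5) and DESeq2 called 2, Reln and Hgf. Here the 95% intervals were -1.02 to -0.26 for Reln and -0.995 to -0.25 for Hgf, and the lowest adjusted p was 0.071.

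Dose and compound gave no call among the members. Between high and low zalfermin, where 1.84% of all genes were called, 1 member had an unadjusted p under 0.05, Rgs5 at -0.64 ± 0.22 (adjusted p = 0.15), and DESeq2 called 0. Between high and low semaglutide, where 0.0% were called, no member had an unadjusted p under 0.05 and DESeq2 called 0. Between high-dose zalfermin and high-dose semaglutide, where 0.447% were called, 1 member did, Reln at -0.48 ± 0.19 (adjusted p = 0.34), and DESeq2 called 0. The low-dose interaction, the combination's log2 difference beyond the sum of those of its components, called no member with either tool where 0.0142% of all genes were called. It was -0.58 ± 0.26 for Lrat, the only member with an unadjusted p under 0.05 (adjusted p = 0.68), -0.44 ± 0.32 for Rgs5 (0.89) and -0.34 ± 0.27 for Hgf (0.91).

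The treated groups were then set against chow to see how far each gene stood from the undiseased level. The same 7 members, Lrat, Reln, Hgf, Hand2, Cygb, Rgs5 and Pdgfrb, were called higher than chow with low-dose zalfermin (25.1% of all genes were called higher), low-dose semaglutide (24.4%), high-dose zalfermin (19.7%) and high-dose semaglutide (21.3%). With the combination, where 17.4% of all genes were called higher, 6 were, and Rgs5 was not (0.56 ± 0.23, adjusted p = 0.059 with edgeR), although its unadjusted p was under 0.05 and DESeq2 called it. Pdgfrb kept the largest difference from chow, at 1.75 ± 0.30 with the combination and 2.28 ± 0.30 with low-dose zalfermin. In terms of mean log2 CPM, the combination spanned 62.1% of the distance from vehicle to chow for Rgs5, 51.8% for Hgf, 44.3% for Reln, 37.9% for Lrat, 34.01% for Pdgfrb, 31.3% for Cygb and 26.7% for Hand2.

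Acta2, Des and Tagln against chow again followed chow mouse 8. Acta2 was called lower than chow with the combination (-1.05 ± 0.38, adjusted p = 0.029), low-dose zalfermin (-0.95 ± 0.38, 0.034), high-dose zalfermin (-1.42 ± 0.39, 0.0037) and high-dose semaglutide (-0.97 ± 0.38, 0.036), and none of these was called without chow mouse 8, with differences of -0.09, 0.004, -0.46 and -0.01 in the same order. Des and Tagln were called against chow in no treated group with all mice. Without chow mouse 8 both were called higher in all 5, Des by 0.78 to 1.03 and Tagln by 0.58 to 0.95 on the log2 scale.

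Correlations between members were taken over the 56 mice after subtracting each group's mean log2 CPM, so that they describe mice within groups, for 45 pairs with 100000 permutations within groups and Benjamini-Hochberg adjustment over the pairs. Of these, 19 pairs passed, all positive, with Pearson's r from 0.33 to 0.93. The closest pair was Cygb and Pdgfrb (r = 0.93, Spearman's rho = 0.91, permutation p = 1e-05, the smallest the permutations can give, adjusted permutation p = 7.5e-05 for r), and r was 0.91 without the 2 mice farthest from the median of Cygb. Within series A, B and C it was 0.93, 0.97 and 0.85.

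**Figure D4:**
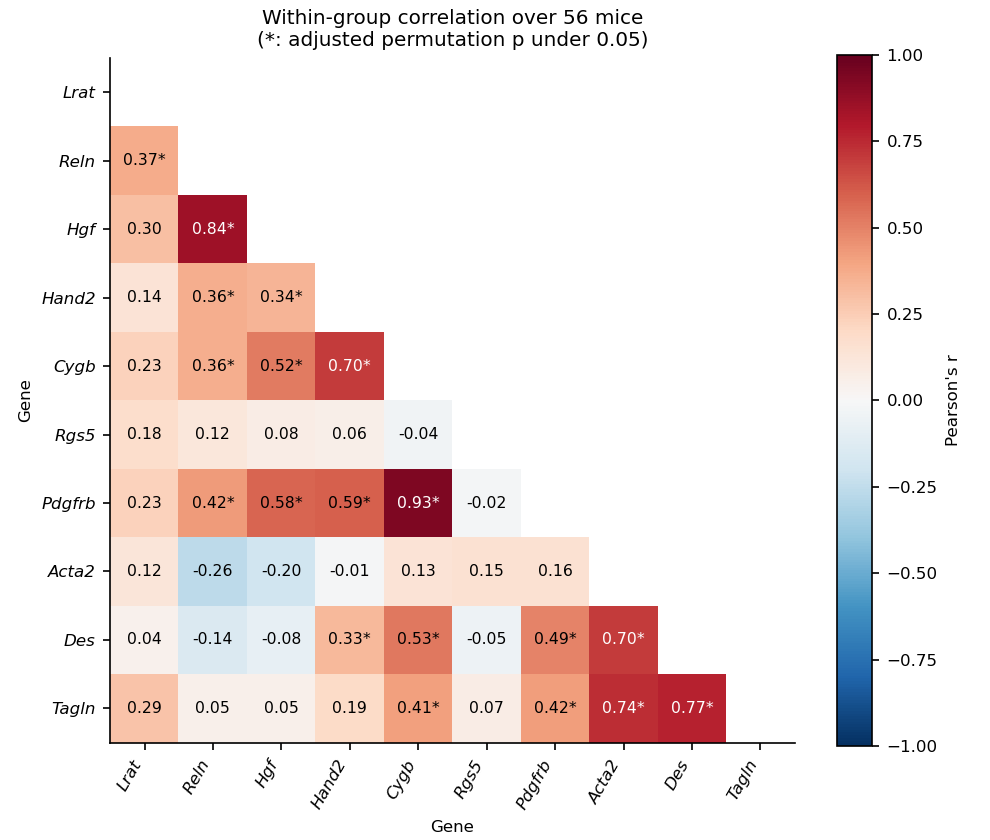
Pearson's r for the 45 pairs of members over 56 mice after subtracting group means of log2 CPM, coloured from -1 to 1, with asterisks for an adjusted permutation p under 0.05. Reln with Hgf, Cygb with Pdgfrb and Hand2, and Acta2, Des and Tagln with each other are the darkest cells, whereas the row and column of Rgs5 hold no asterisk.

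Reln and Hgf formed the next closest pair (r = 0.84, rho = 0.78, adjusted permutation p = 7.5e-05, r = 0.80 without the 2 farthest mice), and r was 0.69, 0.89 and 0.85 in series A, B and C. Hand2 followed Cygb (r = 0.70, rho = 0.70, adjusted permutation p = 7.5e-05) and Pdgfrb (r = 0.595, rho = 0.58, adjusted permutation p = 0.000129). Acta2, Des and Tagln correlated with each other, with r of 0.70 for Acta2 and Des, 0.74 for Acta2 and Tagln and 0.77 for Des and Tagln. Chow mouse 8 raised these: without it r was 0.46, 0.54 and 0.56, and all 3 pairs still passed (adjusted permutation p of 0.00267, 0.000225 and 0.000225).

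Des also followed Cygb (r = 0.53, rho = 0.67) and Pdgfrb (r = 0.49, rho = 0.58), with adjusted permutation p of 7.5e-05 and 0.000495. Acta2 passed with no gene of the first 7 members, and Rgs5 passed with none of the 9 others, its r running from -0.05 to 0.18. By Pearson's r over all mice, Lrat passed with Reln (r = 0.37, rho = 0.34, adjusted permutation p = 0.0243), and within series A that r was -0.03. Lrat with Tagln passed by rho (0.34, adjusted permutation p = 0.0391) and not by r (0.29, adjusted permutation p = 0.131), and without chow mouse 8 by r too (0.45, adjusted permutation p = 0.00667). Leaving out low-dose semaglutide mouse 6 left 12 pairs, all among the 19, and the pair of Lrat and Reln was not among them.

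Over 11874 genes with a mean of at least 1 CPM, the genes most like each member by Spearman's rho over the same 56 mice, are named as a description. Cygb was closest to Olfml3 (rho = 0.95), Ltbp3 (0.93) and Pamr1 (0.92), and Pdgfrb to the collagen gene Col6a3 (0.91), Cygb (0.91) and Ltbp3 (0.90). Reln was closest to the collagen gene Col14a1 (0.87), to Abcc9, a subunit of potassium channels (0.82), and to Hgf (0.78), and Hgf to Reln (0.78), Abcc9 (0.77) and Ttc3 (0.77). Hand2 was closest to Fam180a (0.86), Igfbp7 (0.82) and the metalloproteinase inhibitor Timp2 (0.79).

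Acta2 was closest to the smooth muscle genes Myl9 (0.75), Myh11 (0.69) and Lmod1 (0.64), and Des to Cst3 (0.83), Csrp1 (0.81) and Hk1 (0.80). Lrat was closest to the fatty acid synthesis genes Elovl6 (0.54) and Acaca (0.54) and to Tnfrsf11b (0.53), the lowest rho of any member's closest gene. For Rgs5 the closest were Efcab14 (0.65), Postn (0.64) and Actr2 (0.63), and for Tagln they were Ptgr1 (0.69), Ap1s1 (0.68) and Ces2g (0.64).

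Counts for the lists that follow are to be read against the share over all tested genes. Against vehicle, 28.9% were called lower and 26.5% higher in chow, 10.9% lower with the combination, 8.68% lower with high-dose zalfermin and 1.0% lower with high-dose semaglutide. Of 19 other genes used as markers of resting stellate cells, 11 were called lower in chow than in DIO-MASH vehicle and 0 higher (median log2 difference of -1.05), and 7 were called lower with the combination and 0 higher (median -0.35). They included Colec11, a collectin (-0.87 ± 0.15 with the combination, adjusted p = 1.5e-05), Sod3, the extracellular superoxide dismutase (-0.63 ± 0.14, 0.0011), and Ngfr, the neurotrophin receptor (-0.90 ± 0.23, 0.0043). High-dose zalfermin lowered 3 of the 19, and the other 3 monotherapies called 0.

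Genes of activated stellate cells and their matrix followed the same direction. Of 18 tested, 17 were called lower in chow than in vehicle and 1, Fn1, higher (median -2.89, beside -1.54 over the 10 members), and the combination lowered 14 and raised 1, again Fn1, which hepatocytes also secrete (median -1.47). Col3a1, a fibrillar collagen, had a mean of 24.7 CPM in chow, 396 in vehicle and 78.5 with the combination (-2.33 ± 0.32, adjusted p = 2.9e-07). Postn, periostin, had means of 6.27, 18.6 and 4.77 CPM (-1.95 ± 0.26, 1.5e-07), Loxl2, a collagen cross-linking enzyme, 1.42, 10.9 and 3.20 (-1.74 ± 0.25, 5.4e-07), and Fbn1, fibrillin, 3.45, 28.4 and 8.38 (-1.74 ± 0.27, 2.7e-06). Acta2 had a median of 6.97 CPM in vehicle, 4.01 in chow and 4.86 with the combination, and was called in neither comparison. High-dose zalfermin lowered 11 of the 18 and high-dose semaglutide 6, while both low doses called 0.

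The partners of the members were described from the same lists. All 5 other PDGF family genes tested were called lower in chow, and the combination lowered 2, Pdgfa (-0.56 ± 0.17, adjusted p = 0.013) and Pdgfb, the ligand of Pdgfrb (-0.82 ± 0.31, 0.047). Of 7 genes of the HGF axis, Hgfac, the serum protease that activates HGF, was 319 CPM in chow, 146 in vehicle and 259 with the combination (0.82 ± 0.12, adjusted p = 4.7e-07), opposite in direction to Hgf itself, and Hpn, hepsin, another activating protease, rose by a smaller amount (0.28 ± 0.08, 0.01). In chow, 4 of the 7 were called higher and 1, Plau, lower. Met, the receptor, was called higher in chow (0.55) and had a difference of 0.17 with the combination that was not called. Of the 3 tested genes of the Reelin receptor list, Vldlr and Lrp8 were called lower in chow, and Vldlr was called higher with the combination (0.55 ± 0.21, adjusted p = 0.048).

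Among 5 tested genes of retinoid handling, Rbp4, the plasma retinol carrier made by hepatocytes, was higher in chow (0.84 ± 0.10, adjusted p = 2.3e-10) and with the combination (0.63 ± 0.10, 2e-06), where Lrat was lower. Of 10 genes of TGF-beta signalling, 8 were called lower in chow and 4 with the combination, among them Tgfbr2 (-0.88 ± 0.16, adjusted p = 5.1e-05), Ltbp1 (-1.05 ± 0.26, 0.0023) and Tgfb1 (-0.56 ± 0.17, 0.013).

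Markers of other liver cells differed between the same groups. Of 8 tested hepatocyte genes, 7 were called higher in chow, as were 3739 of all tested genes, and 6 with the combination, as were 1417. Cps1, the first enzyme of the urea cycle, differed from vehicle by 1.33 ± 0.20 with the combination. Their summed level was 154600 to 261200 CPM in chow, 71120 to 93840 in vehicle and 100200 to 147100 with the combination, with Alb at means of 137600, 53170 and 84210 CPM. Of 7 tested pericyte genes, 5 were called lower in chow and 4 with the combination, Kcnj8 (-0.68 ± 0.18, adjusted p = 0.0044), Mcam (-0.70 ± 0.20, 0.0079), Ndufa4l2 (-1.01 ± 0.29, 0.01) and Notch3 (-0.74 ± 0.26, 0.035). Of 11 portal fibroblast genes, 8 were called lower in chow and 4 with the combination, led by Eln (-1.90 ± 0.35, 7e-05), and Entpd2, Mfap4 and Fbln2 were the others.

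Of 11 smooth muscle genes, 3 were called higher in chow (Myh11, Cnn1 and Actg2) and 3 lower. The 3 called higher are those with the high values in chow mice 7 and 8 given above, and their ranges in chow mice 1 to 6 overlapped the vehicle range. With the combination, Tpm1 was the 1 called lower (-0.68 ± 0.17, adjusted p = 0.0039). Of 6 mesothelial genes, Wt1 (-2.74 ± 0.49) and Gpm6a (-1.49 ± 0.34) were lower in chow and 0 were called with the combination. Of 7 Kupffer cell genes, 4 were called lower and 1 higher in chow, with a median summed level of 206 CPM in chow and 565.4 in vehicle, and the combination raised 2, Clec4f (0.94 ± 0.32, adjusted p = 0.028) and Timd4 (1.58 ± 0.54, 0.029). Of 7 cholangiocyte genes, 4 were called lower in chow, with a median summed level of 60.9 CPM in chow and 400.5 in vehicle. Spp1 alone had a mean of 350.2 CPM in vehicle, out of a mean sum of 415.3. The higher sum in vehicle thus came mostly from this 1 gene and does not describe the list as a whole. Spp1, which other cells of injured liver also make, was the 1 lowered by the combination (-1.37 ± 0.39, 0.0086), and of 8 sinusoidal endothelial genes, 3 were called lower and 1 higher in chow and Pecam1 was lowered by the combination (-0.41 ± 0.15, 0.035). The part of these cell types in the levels of the 10 members was not tested.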

How the data were processed

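Whole-liver RNA was sequenced in 56 mice, 8 in each of 7 groups, which were taken from the treatment field of the labels. Per the study's methods, the authors made the libraries with a stranded mRNA kit and aligned them with STAR to GRCm38 with Ensembl annotation, and the submitters' processing notes list Trim Galore 0.6.4 and Salmon 1.9.0. The program that gave the counts and its use of strand are not given in the sources used here. The deposited values are whole-number counts per gene, used as they stand, with all 56 columns mapped and 0 blank gene names.

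Genes with at least 5 reads in at least 3 mice were kept (14105 of 21935). Counts were scaled by TMM and fitted over all groups with edgeR 4.0.16 in R 4.3.3 (quasi-likelihood F test, Benjamini-Hochberg adjustment over all kept genes, threshold 0.05). The SE is the log2 difference divided by the square root of F, and 95% intervals are 1.96 SE to either side. In all, 19 comparisons were made. The fit was tested on simulated data for a treated group against an unchanged control group: of 13977 genes, 200 were given a 2-fold change and 93% were recovered, with 2.62% false calls. The changed genes were drawn only from those with higher mean counts, so the recovered share does not cover low-count genes or smaller changes. Counts were drawn with the spread that edgeR itself estimated, few genes were changed and no mouse stood apart. The share of false calls therefore does not carry over to the comparisons above. DESeq2 1.42.0, other scalings, filters, sample sets, the number series as a covariate and each mouse left out in turn were tried as alternatives. Shares over all genes are those of the main edgeR fit only. Log2 CPM used a prior count of 2. P-values set a difference or a correlation against the variation between mice.

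The members, the other gene lists and the tests were chosen with earlier results of these data known. Named besides the members were, from each list, up to 4 genes with the lowest p among those called with the combination, or else in chow, and per member the 3 genes of highest rho. Genes given for another reason (Myh11, Cnn1, Actg2, Met, Plau, Fn1, Lrp8, Alb by level) were picked after their values were seen. Lists hold 1 gene, Tf, that was not analysed here, and genes below the filter were Myocd, Pln, Kcnmb1, Higd1b, Mfap5 and Stra6. Exon lengths and positions come from GENCODE M21 and promoters from RefSeq, where 7 of 10 members matched. Values of 2 listed genes that the naming rule would give are not reported here.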

Additional observations from a re-analysis of the deposited data

Results flagged for a closer look

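In 70 sets of 8 values (10 members in 7 groups), 8 had a highest or lowest mouse whose gap to the next, divided by the range of the group, passed Dixon's 95% limit. Chance gives about 1 in 20. Chow mouse 8 was the highest for Acta2 at 50.1 CPM (next 18.6), for Des at 49.5 (next 10.5) and for Tagln at 40.4 (next 10.2), the 3 contractile members and no others. Combination mouse 4 was the highest for Acta2 at 8.74 CPM (next 5.80). High-dose semaglutide mouse 7 was the highest for Hgf at 26.9 CPM (next 17.7).

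On the low side, 3 values stood apart. High-dose zalfermin mouse 3 had 12.1 CPM of Rgs5 (next 30.7), and the Rgs5 call of that group was lost without it. High-dose zalfermin mouse 6 had 11.2 CPM of Pdgfrb (next 28.6). Low-dose semaglutide mouse 6 had 6.80 CPM of Tagln (next 12.4). It was below the rest of its group for every member but Hand2 and Rgs5.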

How the results depend on the processing

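Of 103 member differences recomputed under the alternatives, 76 kept their direction and their side of the threshold in every one. With high-dose zalfermin against vehicle, the members called were 2 in the analysis as reported, 5 without series D (an alternative chosen after the data were seen), 6 with only the groups compared, and 1 to 4 with 1 mouse left out. For the combination against low-dose semaglutide they were 1 with DESeq2 size factors, 1 without a filter beyond 1 read, 0 with only the groups compared and 0 to 2 with 1 mouse left out. Against high-dose semaglutide they were 2 with DESeq2, 1 with the number series as a covariate, 1 without series D and 0 to 2 with 1 mouse left out, and against low-dose zalfermin 1 to 4. Correlated pairs came to 19 with DESeq2's vst, 12 without low-dose semaglutide mouse 6 and 23 without chow mouse 8 (chosen after the data were seen). The shares of all genes called under these alternatives are not given here, and the cause of these shifts was not tested.

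Differences that changed sign lay near 0 or rested on chow mice 7 and 8. For Acta2 in chow against vehicle the log2 difference was -0.415 with the number series as a covariate and -0.91 without series D, and -0.27 to 0.86 with 1 mouse left out. For Acta2 against chow, with the covariate and without series D, it was 0.35 and 0.64 for low-dose zalfermin, 0.25 and 0.54 for the combination and 0.325 and 0.63 for high-dose semaglutide, and 0.18 without series D for high-dose zalfermin. With 1 mouse left out it was -1.12 to 0.004 for low-dose zalfermin against chow. Against vehicle with the covariate, it was 0.10 for Acta2 with low-dose semaglutide and 0.037 for Des with high-dose zalfermin. With 1 mouse left out, the ranges were -0.96 to 0.038 for Des in chow, -0.089 to 0.035 for Lrat and -0.15 to 0.034 for Rgs5 with low-dose zalfermin, -0.14 to 0.034 for Lrat, -0.27 to 0.016 for Acta2 and -0.027 to 0.17 for Des with low-dose semaglutide, and -0.15 to 0.063 for Reln and -0.017 to 0.15 for Des with high-dose semaglutide.

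No paired analysis was possible because the label numbers differ between groups and tie no mouse to another. The lowest values were 18 reads for Hgf and 19 for Acta2, both in chow. Acta2 also fell to 20 reads with high-dose zalfermin and 25 with low-dose semaglutide, whereas Hgf had at least 46 outside chow. Small differences in Acta2, and in Hgf against chow, were limited by counting.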
